A study of Mus musculus with 6 samples.

Results

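The 10 genes B2m, H2-K1, H2-D1, Tap1, Tap2, Tapbp, Nlrc5, Psmb8, Psmb9 and Psmb10, which serve MHC class I antigen presentation, were followed in regulatory T cells from mice with intact and with floxed Junb, the gene of the AP-1 subunit JunB. They were chosen by name for their place in the pathway, with earlier results of these data known. All 10 were found among the 53379 genes of the deposited count tables. All 10 also passed the filter on low counts that left 20475 genes for testing.

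The cells were Tregs (regulatory T cells, a CD4 lineage that holds immune responses in check), sorted by flow cytometry from C57BL/6 mice aged 3 months. The WT group held 3 libraries of genotype Foxp3YFP-CrexJunb+/+ and the KO group, labelled bKO, 3 libraries of genotype Foxp3YFP-CrexJunbFlox/Flox. Both groups therefore carried the Cre allele, which is driven from Foxp3 and acts in cells that express it, and the labels name no agent for either. The labels do not say if each library is a separate animal or a pool of animals. The p-values below thus refer to library-to-library spread, some of which may be technical.

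MHC class I molecules carry peptides from inside a cell to its surface, where CD8 T cells read them. A heavy chain, here H2-K1 or H2-D1, pairs with the light chain beta-2-microglobulin, the product of B2m. The peptides are cut by the proteasome, in which interferon-induced catalytic subunits can take the place of the constitutive ones to form the immunoproteasome. They are pumped into the endoplasmic reticulum by the transporter of TAP1 and TAP2 and loaded with the help of tapasin. NLRC5 is the transactivator that switches on many of these genes, through promoter-bound RFX, CREB/ATF and NF-Y factors. Lymphocytes express the pathway at a high level, and interferon gamma raises it further.

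Totals lay between 33784183 and 41231173 counts per library. Values are CPM (counts scaled to a common library size) with TMM factors (trimmed mean of M values), and differences are log2 of KO over WT from edgeR's quasi-likelihood fit of all genes, with Benjamini-Hochberg adjustment over all 20475 genes. Junb itself, the altered gene, was at 84.7 ± 6.32 CPM in the WT libraries and at 54.7 ± 4.38 CPM in the KO libraries (mean ± SD, n = 3 per genotype, also below). The libraries labelled KO thus kept 64.5% of the WT level of Junb, without overlap (log2 difference -0.63, SE 0.13, unadjusted p = 0.00163 by edgeR). Exons of Junb share 7.52% of their bases with Prdx2 on the other strand, so this level depends on how such reads were counted. The part of other cell types in it was not tested. Junb itself was not called by edgeR (adjusted p = 0.9999) and was called by DESeq2 (adjusted p = 0.00417), so a count of 0 called by edgeR does not show that a gene was unaltered. The T cell and Treg identity genes Cd3d, Cd3e, Cd3g, Cd4, Trac, Foxp3, Il2ra, Ctla4, Ikzf2 and Il2rb had counts in all 6 libraries, had lower KO means in 10 of 10 cases (0 called by edgeR), and summed to 3960 to 5171 CPM in WT and 2914 to 4070 CPM in KO. KO replicate 1 had the lowest of these sums and the highest sum of erythroid and platelet genes, 7675 CPM, where the other libraries had 79.5 to 2770 CPM. Markers of B cells and myeloid cells were present in every library, although Cd14 and Itgax were at 0 in WT replicate 3. Their sums are given below beside the class II genes.

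Of the 10 genes 7 lie on chromosome 17, in the mouse MHC (positions in GRCm38, GENCODE M21). In order they are Tapbp (33915899 to 33929292), H2-K1 (33996017 to 34000347), Psmb9 (34181987 to 34187764), Tap1 (34187553 to 34197225), Psmb8 (34197721 to 34201454), Tap2 (34203527 to 34216321) and H2-D1 (35262730 to 35267499). B2m lies on chromosome 2 (122147686 to 122153083). Nlrc5 (94434356 to 94527272) and Psmb10 (105935735 to 105938444) lie on chromosome 8.

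Promoter stretches are shown because the heavy chain and light chain genes carry the same kinds of elements. Of the motifs marked below, only the CRE core and the Y box are sites of factors named above, CREB/ATF and NF-Y. No RFX site was searched for. RefSeq promoter windows (GRCm38.p6, 250 bases before to 50 after a transcript start) were matched for 8 of the 10 genes, all but Tap2 and Nlrc5. The first 2 lines give the bases before the first annotated exon of H2-K1 (chr17:34000348-34000597, minus strand) and of B2m (chr2:122147437-122147685, plus strand), written 5′ to 3′. Capitals mark matches, on either strand, to a kappaB motif (GGGNNNNNCC, bound by NF-kappaB), an interferon regulatory factor (IRF) motif (TTTCNNTT), a CRE core (TGACG, of the CREB/ATF family) and the Y box (CCAAT, bound by NF-Y).
H2-K1: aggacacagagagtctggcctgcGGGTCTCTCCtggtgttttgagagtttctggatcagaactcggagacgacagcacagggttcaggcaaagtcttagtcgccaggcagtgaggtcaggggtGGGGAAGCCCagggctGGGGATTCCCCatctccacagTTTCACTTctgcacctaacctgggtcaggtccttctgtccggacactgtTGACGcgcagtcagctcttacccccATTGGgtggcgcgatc
B2m: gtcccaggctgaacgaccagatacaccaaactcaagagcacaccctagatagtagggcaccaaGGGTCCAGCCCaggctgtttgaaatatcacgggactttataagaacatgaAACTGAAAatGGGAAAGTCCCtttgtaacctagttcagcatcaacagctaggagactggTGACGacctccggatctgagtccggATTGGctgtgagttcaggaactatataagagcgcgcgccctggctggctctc

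Both stretches hold kappaB, IRF, CRE core and Y box matches. The IRF match follows the nearest kappaB match in H2-K1 and precedes it in B2m. In the heavy chain family the kappaB and IRF pair was sought with a fixed pattern, GGGGATT and then the IRF motif at a nearly set spacing. Part of the likeness between the matches was thus required by the search. The next lines give the matches for H2-K1 (chr17:34000430-34000458, minus strand), H2-D1 (chr17:35262923-35262951), H2-Q4 (chr17:35379443-35379471), H2-Q6 (chr17:35424677-35424705) and H2-Q7 (chr17:35439022-35439049), the last 4 on the plus strand, with the same capitals.
H2-K1: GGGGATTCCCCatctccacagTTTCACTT
H2-D1: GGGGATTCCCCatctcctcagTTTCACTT
H2-Q4: GGGGATTTCCCatctccccagTTTCACTT
H2-Q6: GGGGATTCCCCatctccccagTTTCACTT
H2-Q7: GGGGATTCCCatctccccagTTTCACTT

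Of 17 heavy chain and class I-like genes with a promoter window, these 5 matched the pattern searched for. Over the 8 windows of the studied genes, a kappaB match stood in 5 (50.4% of all 27025 promoters hold one), an IRF match in 3 (24.2%), a CRE core in 5 (21.0%) and a Y box in 6 (37.9%). The AP-1 motif TGACTCA, the kind of site that JunB dimers bind, was found in 0 of the 8 windows on either strand, against 5.17% of all promoters, which says only that these letters are not in these windows. Some kappaB matches overlap each other by all but 1 base. Tap1 and Psmb9 start 226 bases apart on opposite strands, so their windows share 275 of 300 bases and most of their matches are the same letters.

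**Figure D1:**
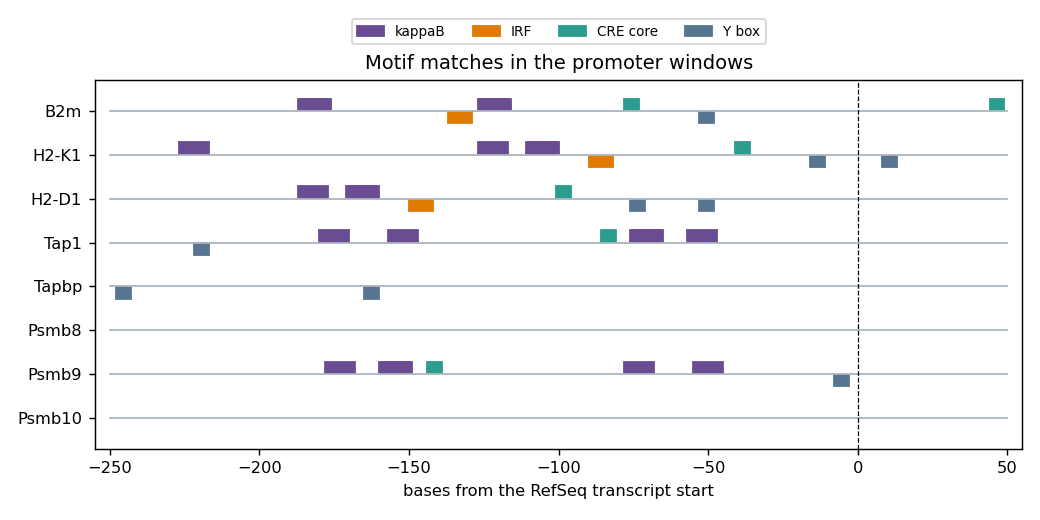
Motif matches in the promoter windows of the 8 genes with a RefSeq entry, on an axis of bases from the transcript start (dashed line at 0), with overlapping matches drawn merged. H2-K1, H2-D1 and B2m carry kappaB, IRF, CRE core and Y box matches, Tap1 and Psmb9 the mirror image of one shared stretch, and Psmb8 and Psmb10 none of the 4 motifs.

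All 10 genes had a lower fitted level in KO, by small amounts, and none passed the test. The fitted log2 differences ran from -0.32 for Tap1 to -0.079 for Nlrc5, with a median of -0.15. Over all genes tested the median was 0.0055 and 49.1% lay below 0. The 10 T cell and Treg identity genes were also all lower, with a median of -0.35. The edgeR test called 0 of the 10 genes, and 0% of all 20475 genes (adjusted p = 0.9999 for each of the 10). At an unadjusted p under 0.05, edgeR had 0 of the 10 and 2.88% of all genes. DESeq2 called 0 of the 10, with 0.272% of all genes called (63 of 23198 with an adjusted p). All KO values lay under all WT values for 3 of the 10, H2-K1, H2-D1 and Psmb9, against 4.07% of all genes. The same 6 libraries stand behind each gene, so the 10 genes are not 10 independent observations. In bulk RNA, fewer cells of a type and less RNA per cell cannot be told apart.

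Depth was not what limited these comparisons. The smallest count of any of the 10 genes in a library was 5073, for Nlrc5 in KO replicate 1, where counting error alone is 1.40%. Spread between libraries of a genotype was larger, from 2.37% (H2-D1 in WT) to 24.3% (Tap2 in WT) as a coefficient of variation. Reads carry no molecular identifiers, so that counting error takes each read as a separate molecule.

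Both heavy chain genes had lower values in every KO library than in any WT library, without passing the test. H2-D1, the gene of the classical D heavy chain, had 4949, 4872 and 4723 CPM in the WT libraries (replicate order here and below) and 4095, 4387 and 4603 CPM in the KO libraries. The groups did not overlap, and KO replicate 3 came closest to the lowest WT library, WT replicate 3. KO had 90.0% of the WT mean, a log2 difference of -0.15 (SE 0.086, 95% interval -0.35 to 0.050, edgeR unadjusted p = 0.118). H2-K1, the classical K heavy chain, had 3848, 3519 and 3535 CPM in the WT libraries and 3028, 3193 and 3477 CPM in the KO libraries. It showed the same picture: all 3 KO libraries were lower, KO replicate 3 the least so. Its KO mean was 89.0% of WT, with a log2 difference of -0.17 (SE 0.095, 95% interval -0.39 to 0.054, edgeR unadjusted p = 0.117). The exact two-sided permutation test gave p = 0.1 for either gene, the smallest that 3 against 3 libraries can reach.

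B2m, the light chain that every class I heavy chain needs to reach the surface, overlapped between genotypes. Its WT libraries had 3466, 3377 and 2784 CPM, and its KO libraries 2709, 3251 and 3082 CPM. WT replicate 3 lay with the KO libraries, and the low value of KO replicate 1 was close to it. KO had 93.9% of the WT mean (log2 difference -0.091, SE 0.12, 95% interval -0.38 to 0.20, edgeR unadjusted p = 0.484). The ratio of H2-D1 to H2-K1 per base of exon ran from 1.47 to 1.58 over the 6 libraries, 1.52 ± 0.056 in WT and 1.54 ± 0.029 in KO.

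**Figure D2:**
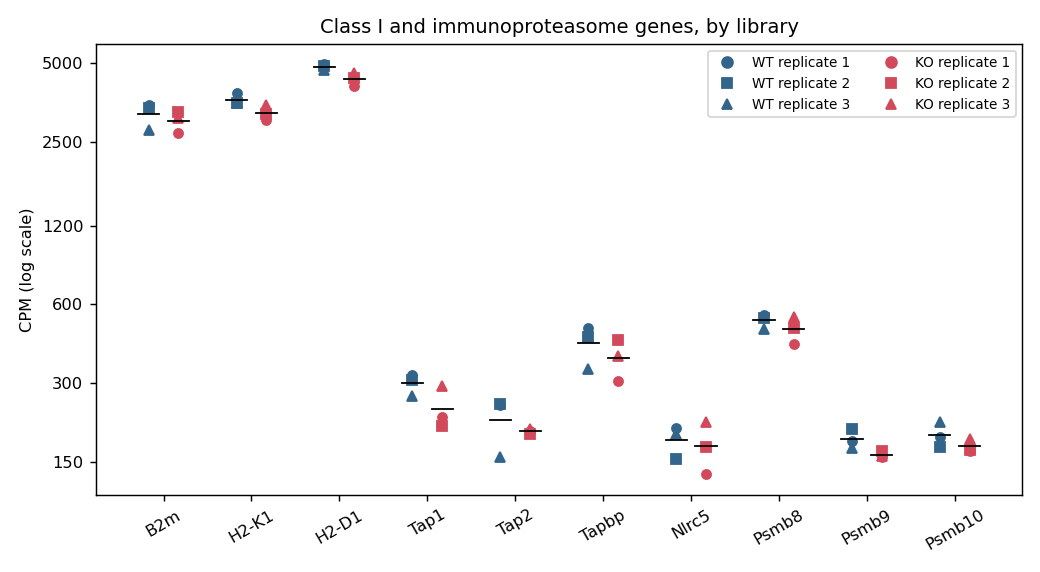
CPM on a log axis for each gene in each library, WT in blue and KO in red, with the shape giving the replicate number and the black bar the mean of 3 libraries. H2-K1, H2-D1 and Psmb9 have all KO points below all WT points, and the other 7 genes overlap between genotypes.

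Of the loading genes, Tap1 had the largest difference of the 10. Tap1, one chain of the peptide pump, had 323, 307 and 269 CPM in the WT libraries and 222, 206 and 291 CPM in the KO libraries. KO replicates 1 and 2 were below all WT libraries, and KO replicate 3 lay inside the WT range. The KO mean was 80.0% of WT, a log2 difference of -0.32 (SE 0.16, 95% interval -0.70 to 0.058, edgeR unadjusted p = 0.0852). Tap2, the other chain of the pump, had 247, 249 and 156 CPM in the WT libraries and 197, 191 and 201 CPM in the KO libraries. The KO libraries were nearly alike and sat between WT replicate 3 and the other two WT libraries, so its log2 difference of -0.15 (SE 0.19, 95% interval -0.59 to 0.30) rests on 2 WT libraries. Tapbp, which encodes the loading chaperone tapasin, had 488, 450 and 339 CPM in the WT libraries and 307, 438 and 382 CPM in the KO libraries. The groups overlapped broadly (log2 difference -0.18, SE 0.19, 95% interval -0.62 to 0.26).

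Nlrc5, the transactivator of the pathway, had the smallest difference of the 10. It had 203, 154 and 191 CPM in the WT libraries and 134, 171 and 213 CPM in the KO libraries. KO held both the lowest and the highest library. For Nlrc5 the estimate was -0.079 (SE 0.19, 95% interval -0.54 to 0.38, edgeR unadjusted p = 0.698), and it was 0.070 without KO replicate 1 and 0.0020 without WT replicate 1. The interval of Nlrc5 spans folds from 0.688 to 1.30, so a change within that range in either direction is not excluded.

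Among the immunoproteasome subunits, Psmb9 separated between genotypes and the others overlapped. Psmb9, the gene of the caspase-like-site subunit LMP2, had 180, 200 and 169 CPM in the WT libraries and 157, 165 and 158 CPM in the KO libraries. The 3 KO libraries lay close together just under the lowest WT library. KO had 87.1% of the WT mean, a log2 difference of -0.20 (SE 0.11, 95% interval -0.46 to 0.061, edgeR unadjusted p = 0.114, exact permutation p = 0.1). Psmb8, which encodes the chymotrypsin-like subunit LMP7, had 547, 533 and 483 CPM in the WT libraries and 423, 488 and 537 CPM in the KO libraries. Only KO replicate 1 was below all WT libraries (log2 difference -0.11, SE 0.12, 95% interval -0.40 to 0.18). Psmb10, which encodes the trypsin-like subunit MECL-1, had 187, 171 and 212 CPM in the WT libraries and 165, 167 and 184 CPM in the KO libraries. KO replicate 3 lay within the WT range and the other two KO libraries just below it (log2 difference -0.14, SE 0.12, 95% interval -0.43 to 0.15).

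**Figure D3:**
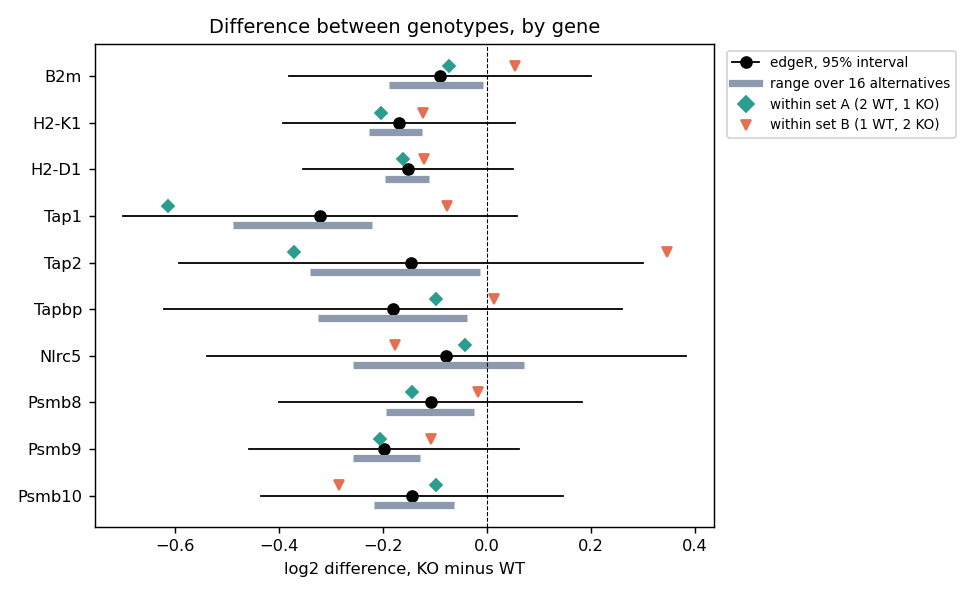
Log2 difference between KO and WT for each gene: black points and lines are the edgeR estimate and its 95% interval, grey bars the range over 16 alternatives, green diamonds and orange triangles the difference within each set of libraries. Every interval crosses 0, from -0.32 for Tap1 to -0.079 for Nlrc5, and the within-set values of Tap2 lie on opposite sides of 0.

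The table names carry a number that splits the libraries into set A (WT replicates 1 and 2, KO replicate 2) and set B (WT replicate 3, KO replicates 1 and 3). The labels do not explain this number. Within set A all 10 genes were lower in KO, with a median log2 difference of -0.15. Within set B 7 of 10 were lower, with a median of -0.093. The heavy chains kept their direction in both sets, at -0.16 and -0.12 for H2-D1 and at -0.20 and -0.12 for H2-K1. Psmb9 did so too, at -0.21 and -0.11. B2m (-0.074 and 0.053), Tap2 (-0.37 and 0.35) and Tapbp (-0.098 and 0.013) changed sign between sets A and B, and Tap1 was at -0.61 in set A and -0.078 in set B. Each within-set value rests on 3 libraries and has no test. With a term for the set in the edgeR fit, the difference was -0.0088 for B2m, -0.013 for Tap2 and -0.039 for Tapbp, and -0.14 for H2-D1 and -0.16 for H2-K1.

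Averaged over the 10 genes, the centred log2 CPM was lowest in KO replicate 1 (-0.21) and highest in WT replicate 1 (0.18). Single genes departed from this mean profile to differing degrees. KO replicate 1 held the lowest value for 8 of the 10 genes, all but Tap1 and Tap2, and WT replicate 1 the highest for 6 of 10. All 10 genes were above their own mean in WT replicate 1 and none was in KO replicate 1. KO replicate 3 differed from the other KO libraries, with 6 of 10 genes above their mean. KO replicate 1 also had the lowest sum of Treg and T cell genes and the highest sum of erythroid and platelet genes. Without KO replicate 1, 9 of the 10 genes were still lower in the fit, all but Nlrc5, with a median of -0.12.

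Psmb8 and the heavy chains lay nearest to this mean profile. Their root mean square differences from it were 0.038 for Psmb8, 0.046 for H2-K1 and 0.048 for H2-D1, on the log2 scale over 6 libraries. Nlrc5 (0.18) and Tap2 (0.18) lay farthest, and Tap1, Tapbp and Psmb10 were each at 0.15. Such differences are of the size of the mean profile's own extremes, so these genes followed it loosely. Outside the 10 genes, those with at least 20 CPM that came closest were Chtop (0.030), the class I heavy chain H2-Q4 (0.031), Ttc1 (0.037), Jakmip1 (0.039) and the non-coding gene Gm26541 (0.042). With 6 libraries such a likeness describes these libraries and no more.

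**Figure D4:**
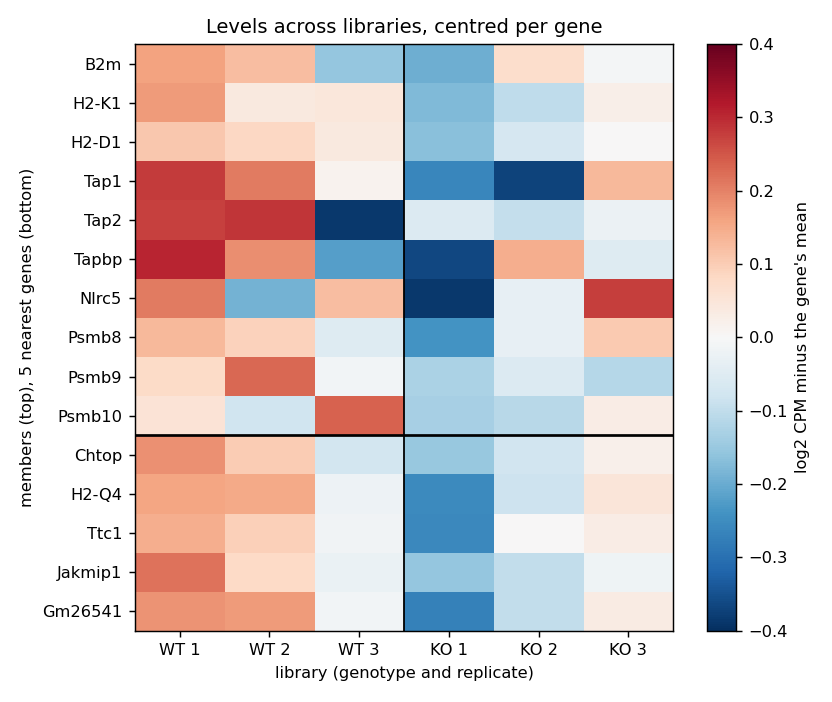
Log2 CPM of each gene minus its mean over the 6 libraries, blue for low and red for high, for the 10 genes above the black line and the 5 genes nearest to their mean profile under it. The column of KO replicate 1 is blue throughout and that of WT replicate 1 red throughout, while WT replicate 3 is mixed, with Tap2 low and Psmb10 high.

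Levels were compared between genes only per kilobase of exon. Using all annotated exons of a gene, B2m was the highest, at 3731 ± 431 CPM per kilobase in WT, followed by H2-D1 (1880 ± 44.6) and H2-K1 (1237 ± 63.3). These 3 neighbours did not overlap in any library. Psmb8 (154 ± 9.96) came next, far below the chains. Its range over the 6 libraries overlapped with that of Tapbp (117 ± 21.3), although Psmb8 was higher within each library. The range of Tapbp overlapped with that of Psmb10 (112 ± 12.2). Tap2 (57.5 ± 13.97), Tap1 (54.7 ± 5.13) and Psmb9 (50.1 ± 4.29) did not differ beyond their spread, and Nlrc5 was lowest at 21.5 ± 3.00. With the length of the coding transcript in place of all exons, an alternative chosen after the data were seen, H2-D1 (2306) and H2-K1 (2245) overlapped and Psmb9 moved from 50.1 to 136, above both transporter genes. By genotype means, the order of the top gene, the heavy chains, Psmb8 and the lowest gene was the same under either length. With coding transcripts, H2-K1 was slightly above H2-D1 in WT replicate 1 (H2-D1 to H2-K1 ratio 0.991), and H2-D1 was higher in the other libraries.

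RNA of both immunoproteasome and constitutive subunits was present in every library. These are bulk RNA levels, and the part of the B and myeloid cells in them was not tested. Psmb8 takes the place of Psmb5, Psmb9 that of Psmb6 and Psmb10 that of Psmb7 in the assembled particle. Per base of exon, the Psmb8 to Psmb5 ratio was 1.90, 1.69 and 1.15 in the WT libraries and 1.20, 1.78 and 1.73 in the KO libraries. Psmb9 was below Psmb6 in every library, at a ratio of 0.737, 0.797 and 0.636 in WT and 0.670, 0.697 and 0.651 in KO. Psmb10 exceeded Psmb7 throughout, at 6.56, 5.54 and 8.14 in WT and 5.70, 5.89 and 6.63 in KO. None of the 3 ratios separated the genotypes, and each kept its side of 1 in all libraries under both lengths, although with coding transcripts the mean in WT became 3.28 for Psmb8, 0.835 for Psmb9 and 2.98 for Psmb10. The exons of Psmb7 share 11.8% of their bases with Nek6 and those of Psmb5 hold the microRNA gene Mir686, so the absolute ratios depend on how such reads were counted.

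**Figure D5:**
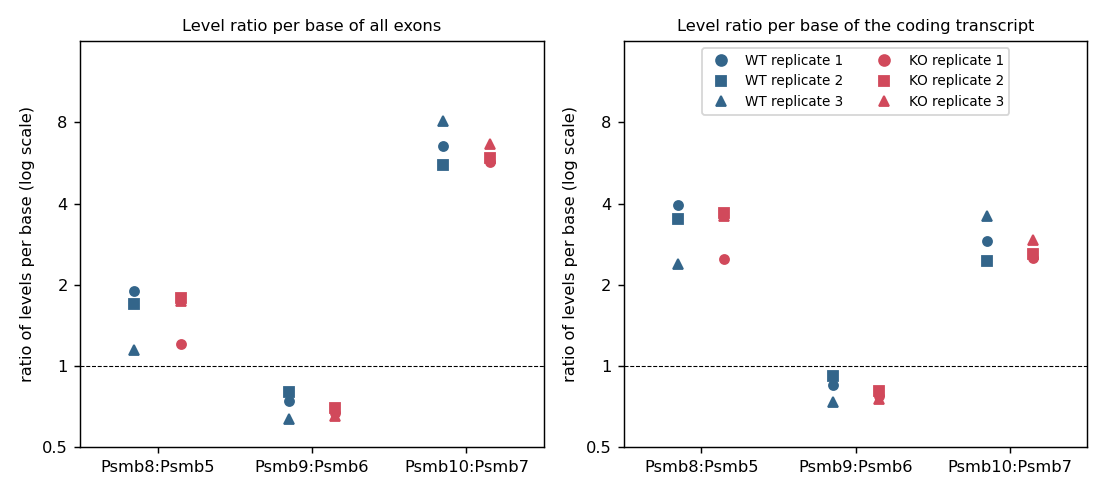
Ratio of each immunoproteasome subunit to the constitutive subunit it replaces, per base of all exons (left) and per base of the coding transcript (right), on a log axis with 1 dashed. In all 6 libraries Psmb8 and Psmb10 lie above their partners and Psmb9 below Psmb6, with WT and KO points intermixed.

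Several of the 10 genes share sequence with other annotated genes, and the sources used here do not say whether reads were counted by strand. Exons of Tapbp share 24.9% of their bases with the antisense gene Gm19412, and those of Psmb8 share 14.7% with the antisense gene Gm20496. For Tap2 the shares were 14.1% with Gm15821 and 4.36% with Gm20496, and Tap1 and Psmb9 share 212 bases with each other. Of the 50-base windows in their transcripts, the length of a read here, 9.63% for H2-K1 and 12.8% for H2-D1 also occur in another gene, most often H2-Q10 and H2-Q1. B2m and Psmb10 had no such window. Values of Tapbp, Tap2, Psmb8 and the heavy chains are uncertain by the part of reads that fell in such sequence.

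The other class I and class I-like heavy chains had mostly lower fitted levels in KO. Of the 20 listed, 19 were tested. The estimate was below 0 for 15 and above 0 for 4 (median -0.17), and edgeR called 0. H2-Q7, a Qa-2 gene and the most abundant of them, had 1610 ± 68.9 CPM in WT and 1402 ± 104 CPM in KO without overlap (log2 difference -0.20, SE 0.098). H2-Q6 had 971 ± 108 and 862 ± 147 CPM, with overlap. H2-T23, which encodes the nonclassical molecule Qa-1, had 868 ± 133 and 688 ± 86.7 CPM (log2 difference -0.33, SE 0.15, edgeR unadjusted p = 0.0656), with KO replicate 3 above the lowest WT library. H2-Q6 and H2-Q7 share 35.0% and 26.5% of their 50-base windows with other genes. Hfe, a class I-like regulator of iron uptake, ran the other way at a low level, with 1.02 ± 0.660 CPM in WT and 6.09 ± 2.82 CPM in KO (log2 difference 2.57, SE 0.74, edgeR unadjusted p = 0.0102, adjusted p = 0.9999), and its groups did not overlap.

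Other loading and trimming genes were closer to even, with 8 of 11 lower, a median of -0.099 and 0 called. Pdia3, the ERp57 oxidoreductase of the loading complex, had 438 ± 84.3 CPM in WT and 339 ± 70.3 CPM in KO (log2 difference -0.37, SE 0.20). Hspa5, the chaperone BiP, had 423 ± 165 and 336 ± 94.0 CPM. Canx, the calnexin that holds new heavy chains, had 255 ± 20.4 and 258 ± 23.6 CPM. Tapbpl, the tapasin relative TAPBPR, had 106 ± 24.9 and 84.2 ± 7.44 CPM, and all 4 genes overlapped between genotypes. Of the proteasome partners and activators, 6 of 8 were lower, with a median of -0.083 and 0 called. The PA28 activator genes Psme1 (298 ± 19.4 and 262 ± 29.3 CPM) and Psme2 (221 ± 7.71 and 199 ± 12.7 CPM), both interferon-induced, overlapped. Constitutive Psmb6 (130 ± 5.77 and 121 ± 2.22 CPM) did not overlap, Psmb5 (90.6 ± 18.6 and 83.0 ± 10.4 CPM) did, and Psmb7 was at 57.1 ± 4.73 and 56.9 ± 1.13 CPM.

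Of 24 promoter factors and interferon signalling genes, 13 were lower and 11 higher (median -0.075), and edgeR called 0. Irf1, which binds the IRF element of class I promoters, had 245 ± 51.4 CPM in WT and 247 ± 32.6 CPM in KO, and the kinase Jak1 had 398 ± 30.6 and 408 ± 19.6 CPM. The 2 genes with the smallest p were Jak2 and Nfya. Nfya, the subunit of NF-Y that binds the Y box, had 21.6, 18.9 and 18.3 CPM in the WT libraries and 12.2, 9.85 and 12.2 CPM in the KO libraries. No KO library of Nfya reached the WT range, and its log2 difference was -0.78 (SE 0.21, edgeR unadjusted p = 0.00701, adjusted p = 0.9999), with an adjusted p of 0.0412 by DESeq2. Within sets A and B the Nfya difference was -1.03 and -0.59. Jak2, a kinase of the interferon gamma receptor, stood at 70.7, 66.5 and 69.6 CPM in WT and 45.8, 46.7 and 42.7 CPM in KO (log2 difference -0.61, SE 0.12, edgeR adjusted p = 0.9999, DESeq2 adjusted p = 0.000258).

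Class II genes, which mouse T cells scarcely transcribe and B cells and myeloid cells express strongly, were spread widely among the WT libraries. Of 10 class II presentation genes 9 were higher in KO, with a median log2 difference of 0.35 and 0 called. Cd74, the invariant chain, had 656, 3377 and 350 CPM in the WT libraries and 1754, 2201 and 1695 CPM in the KO libraries. WT replicate 2 had the highest level and the other two WT libraries the lowest. H2-Aa (195 ± 240 and 286 ± 20.9 CPM), H2-Ab1 (192 ± 235 and 260 ± 31.3 CPM) and the class II transactivator Ciita (9.72 ± 11.95 and 15.6 ± 4.02 CPM) also varied more among the WT than among the KO libraries. Of the B cell markers 8 of 10 had higher KO means. They summed to 189, 1134 and 131 CPM in the WT libraries and to 702, 622 and 543 CPM in the KO libraries, and none was at 0 in any library. All 12 myeloid markers had higher means in KO, with sums of 234 to 1234 CPM in WT and 563 to 1332 CPM in KO. Conventional CD4 T cell markers, 9 of 10 higher, summed to 1425 to 1870 CPM in WT and 1552 to 2397 CPM in KO. For plasma cell markers (5 of 6 higher, Tnfrsf17 at 0 in WT replicate 3) the sums were 295 to 1891 and 560 to 1655 CPM, and for CD8 T and NK cell markers (8 of 10 higher) 90.6 to 179 and 123 to 218 CPM. Of all these lists edgeR called 0 genes. B and myeloid cells also express class I genes, and the part of such cells in the class I values was not tested. The 10 studied genes summed to 14438, 13831 and 12862 CPM in the WT libraries and to 11436, 12657 and 13128 CPM in the KO libraries. The B cell marker sums of the same libraries were 189, 1134 and 131 CPM in WT and 702, 622 and 543 CPM in KO. A relation between the sums was not tested.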

How the data were processed

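The authors deposited raw read counts per gene, 1 table per library of Ensembl identifiers with no header. The tools were featureCounts, STAR 2.3 and bcl2fastq 2.19.0.316, with the mm10 build, per the submitters' processing notes. Annotation release, strand setting and treatment of shared reads were not stated there. Totals were 33784183 to 41231173 counts, and counting error was below the spread between libraries. Symbols were matched for 53274 of 53379 identifiers, and lengths and overlaps taken from GENCODE M21 (GRCm38). Counts were fitted for all genes with edgeR 4.0.16 (R 4.3.3): filterByExpr, TMM, robust quasi-likelihood F test, two-sided, genotype as the only term, threshold 0.05 on the adjusted p. The fit was run on data simulated at the per-gene dispersions of these data and at a fixed dispersion below their common dispersion of 0.26. A required recovery of changed genes was set only at the lower, fixed dispersion. Recovery at the dispersions of these data is not given here. Exact permutation tests used log2 CPM with a prior count of 2. The 10 genes, lists and tests were chosen with earlier results of these data known. Named besides the 10 genes and Junb were the 3 most abundant genes and the 2 with the smallest p of each of 5 pathway lists, the replaced proteasome subunits and the 5 genes of at least 20 CPM nearest in profile. A gene that this rule names is not reported here. Alternatives were other scalings, filters, DESeq2 1.42.0, limma 3.58.1 (voom), terms for the replicate number or the number in the table names, and leaving out each library.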

Additional observations from a re-analysis of the deposited data

How the results depend on the processing

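Over 16 alternatives, 158 of 160 values of the 10 genes kept their direction and stayed short of the threshold (smallest adjusted p = 0.863). The exceptions were Nlrc5 without WT replicate 1 and without KO replicate 1: leaving out single libraries gave it values between -0.26 and 0.070, including 0.0020. All 10 genes were lower under each scaling, filter, tool and added term, and 9 of 10 without WT replicate 1 or KO replicate 1. The sizes were less stable than the directions. Leaving out single libraries gave -0.19 to -0.023 for B2m, -0.34 to -0.038 for Tap2, -0.33 to -0.058 for Tapbp, -0.20 to -0.026 for Psmb8, -0.22 to -0.064 for Psmb10, -0.49 to -0.22 for Tap1 and -0.26 to -0.13 for Psmb9. The heavy chains moved least in these fits, from -0.23 to -0.13 for H2-K1 and from -0.20 to -0.11 for H2-D1. With a term for the library set, B2m (-0.0088), Tap2 (-0.013) and Tapbp (-0.039) came close to 0. The median log2 difference of the 10 genes ran from -0.20 without KO replicate 3 to -0.099 without WT replicate 1. Genes called over the whole table numbered 63 with DESeq2 and 0 in the other fits. With the replicate number as a replicate block the median was -0.15 and 0 genes were called. Deviations from the genotype mean, over all genes tested, correlated at -0.095, 0.19 and 0.035 between same-numbered libraries. Between differently numbered libraries they correlated at -0.18 to 0.13. With 3 libraries per genotype these values cannot decide whether the numbers pair the libraries. Leaving out a library leaves 2 in a genotype.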
